A study of Rattus norvegicus with 59 samples.

Results

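The immediate early genes examined here were 7 transcription factor genes of the rat: Fos (ENSRNOG00000008015), Jun (ENSRNOG00000026293), Junb (ENSRNOG00000042838), Atf3 (ENSRNOG00000003745), Egr1 (ENSRNOG00000019422), Nr4a1 (ENSRNOG00000007607) and Myc (ENSRNOG00000004500). They were chosen by name and not by a cut on their values, though earlier results of these data were known. Each of the 7 identifiers was found among the 22938 genes of both count tables and in the table of sorted nuclear fractions. The study used male Sprague Dawley rats and sorted, from left ventricular tissue, the nuclei carrying PCM1, a centriolar satellite protein of cardiomyocyte nuclei. Surgery was done at a body weight near 170 g: banded animals carried a constriction of the ascending aorta for 6 weeks, sham animals went through the operation without it, and only banded hearts that were hypertrophied and not failing were kept, per the labels. Exercise began at about 280 g, with 6 weeks of interval running on a treadmill for the exercise group (called trained below) and none for the control group. The labels give no other treatment and no age, allele or transgene.

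Immediate early genes are transcribed within minutes of a stimulus, without the need for newly made protein, and most of their transcripts are short-lived. In the heart they respond to stretch, pressure load, adrenergic drive and injury. Fos, Jun and Junb encode subunits of the dimeric factor AP-1, and Atf3, a stress-induced member of the same leucine zipper class, can pair with Jun proteins. Egr1 is a zinc finger factor and a classical target of serum response factor, Nr4a1 is an orphan nuclear receptor, and Myc is a growth-promoting factor that joins the hypertrophic programme of cardiomyocytes.

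Nuclear RNA was counted in 4 libraries of each group, with totals of 2.58 to 14.4 M counts in the banded, 3.18 to 14.1 M in the sham, 1.82 to 7.80 M in the control and 2.14 to 7.60 M in the exercise libraries. Sham replicates 2 and 3 were near copies of each other: their squared count difference was on average 1.29 times what counting error gives, against 6.19 to 85.3 times in the other 23 pairs within a group. Their counts were therefore added and treated as 1 sample, called sham 2-3, which left 15 samples. Genes listed in the authors' deposited table with over 8-fold enrichment in PCM1-negative nuclei made up 4.31% of the counts of sham replicate 1 and 4.45% of those of banded replicate 1, and 0.535 to 1.67% elsewhere. The direction of that table was read from these libraries, in which genes with the opposite enrichment of over 8-fold had a median level of 6.73 log2 CPM (counts-per-million) and the PCM1-negative-enriched genes 1.71 log2 CPM, so these levels are no separate check of the sort. Whether every library came from its own animal is not spelled out in the labels, so p-values reflect the scatter of these samples, which may be technical in part. The identifiers could not be paired with names beyond the 7 genes, so named cell type markers and other immediate early genes were not examined here.

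Promoters of 3 of the 7 genes, Junb, Egr1 and Nr4a1, were listed in the RefSeq table used here (assembly GRCr8). All 3 that were listed are shown, and no promoter was listed there for Fos, Jun, Atf3 or Myc. These 3 genes, with others of the 7, took part in the co-variation described below. Each run holds the 250 bases before the annotated start site, 5′ to 3′. Capitals mark the CArG box, the sequence bound by serum response factor, and CGTCA or its reverse complement TGACG, the core of the cyclic AMP response element.
Junb, chr19:40080876-40081125, plus strand: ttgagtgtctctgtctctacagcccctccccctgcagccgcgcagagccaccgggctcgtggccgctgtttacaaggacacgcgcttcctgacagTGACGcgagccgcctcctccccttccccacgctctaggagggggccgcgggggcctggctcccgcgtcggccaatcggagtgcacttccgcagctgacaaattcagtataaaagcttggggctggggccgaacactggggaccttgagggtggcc
Egr1, chr18:26736828-26737077, plus strand: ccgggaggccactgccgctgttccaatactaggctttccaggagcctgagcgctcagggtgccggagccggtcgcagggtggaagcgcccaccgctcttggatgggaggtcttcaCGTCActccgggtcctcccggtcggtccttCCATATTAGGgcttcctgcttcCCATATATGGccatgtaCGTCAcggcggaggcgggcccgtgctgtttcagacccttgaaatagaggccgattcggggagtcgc
Nr4a1, chr7:134259888-134260137, plus strand: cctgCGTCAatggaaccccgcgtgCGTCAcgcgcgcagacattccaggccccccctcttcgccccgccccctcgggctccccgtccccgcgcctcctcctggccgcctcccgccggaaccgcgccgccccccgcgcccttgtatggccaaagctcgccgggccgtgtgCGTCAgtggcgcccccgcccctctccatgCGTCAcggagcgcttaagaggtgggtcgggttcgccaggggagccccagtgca
Both strands were searched. The Egr1 window held 2 CArG boxes, at positions -105 to -96 and -83 to -74 from the start site, and 2 copies of CGTCA. A CArG box was present in 1.50% of the 33469 promoter windows of this length. The Nr4a1 window held 4 copies of CGTCA, at -246, -226, -82 and -53, and the Junb window held 1 as TGACG at -155, while 18.2% of all windows held at least 1. The AP-1 motif TGANTCA was in none of these 3 windows and in 6.34% of all windows. The EGR motif GCGNGGGCG occurred once in the Nr4a1 window, at -73 to -65 on the reverse strand and without overlap with CGTCA, and in 4.29% of all windows. These matches describe the letters in the windows and not bound sites.

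The nuclear fraction in which each gene was most abundant differed among the 7. In the authors' deposited table, Fos was 14.9-fold higher in PCM1-negative than in PCM1-positive nuclei (false discovery rate, FDR, 0.000317), Egr1 was 10.9-fold higher (FDR 0.00892), Nr4a1 was 6.43-fold higher (FDR 0.000205) and Junb was 3.33-fold higher (FDR 0.000922). Jun stood on the other side, at 2.20-fold higher in PCM1-positive nuclei (FDR 0.00210). Atf3 had a log2 fold of -0.021 (FDR 0.992) and Myc one of 0.32 (FDR 0.604). Thus 5 of 7 genes passed an FDR of 0.05, as did 51.6% of the 12848 genes in that table, and 4 of 7 were higher in PCM1-negative nuclei, as were 27.6%. The table gives no values per library, so these folds have no error here. Per the labels, PCM1-negative nuclei were sequenced from control rats only, as replicates 1 and 2. That fraction was therefore not measured in banded, sham or trained hearts. Which libraries entered the folds is not shown in the file headers. In the sorted nuclei used below, a smaller number of nuclei carrying a transcript and less transcript per nucleus cannot be told apart.

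**Figure D1:**
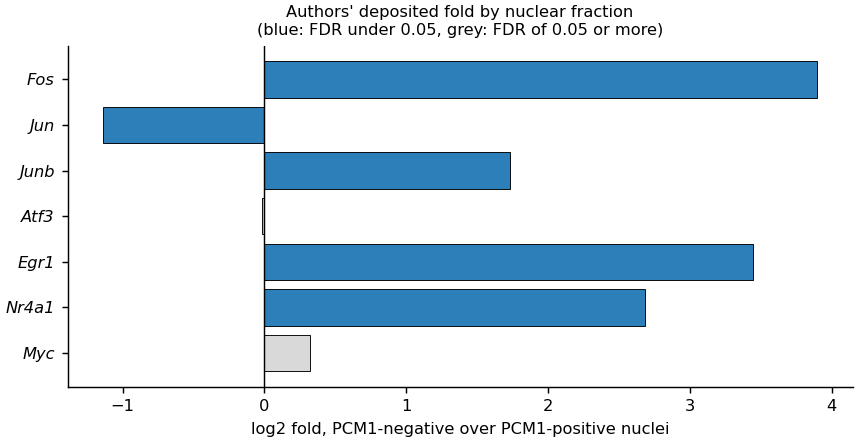
Authors' deposited log2 fold of each gene, PCM1-negative over PCM1-positive nuclei (horizontal axis, log2), as 1 bar per gene with no error bars. Fos, Egr1, Nr4a1 and Junb extend to the right, Jun extends to the left at -1.14, and Atf3 and Myc, in grey, had an FDR above 0.05.

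Levels are given as CPM, with library sizes scaled by TMM (trimmed mean of M values), and are compared only between samples of the same gene. Fos, the AP-1 subunit, was at 7.88, 0.541 and 8.05 CPM in sham 1, sham 2-3 and sham 4. It was at 5.34, 4.46, 35.5 and 70.1 CPM in banded replicates 1 to 4, the last of these resting on 725 counts. Banded replicates 3 and 4 thus lay above every sham sample, whereas banded replicates 1 and 2 lay below the 2 higher sham samples. In the exercise experiment Fos was at 2.61, 3.90, 4.26 and 1.37 CPM in controls 1 to 4 and at 6.18, 0.496, 0.964 and 1.79 CPM in trained replicates 1 to 4. The value of trained replicate 2 came from a single count, the smallest number stored in the tables, which cannot be told from 0. The highest and the lowest of these 8 samples were both trained.

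Jun, the main partner of Fos in AP-1, varied least. It was at 19.7, 10.3 and 17.8 CPM in sham 1, sham 2-3 and sham 4 and at 17.8, 12.6, 22.7 and 20.7 CPM in banded replicates 1 to 4. Controls 1 to 4 were at 13.5, 8.91, 9.14 and 9.85 CPM and trained replicates 1 to 4 at 7.67, 9.91, 7.85 and 6.81 CPM. The banded and sham ranges covered nearly the same levels. Junb, which can replace Jun in AP-1, was at 14.2, 6.85 and 7.97 CPM in sham 1, sham 2-3 and sham 4 and at 12.8, 6.98, 31.0 and 40.3 CPM in banded replicates 1 to 4. The same banded replicates, 3 and 4, were the high ones for Fos and Junb. In the exercise experiment Junb stayed between 6.84 and 16.2 CPM in controls and between 4.68 and 13.6 CPM in trained samples.

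Atf3, the stress-induced factor, was at 19.1, 2.61 and 14.5 CPM in sham 1, sham 2-3 and sham 4 and at 12.6, 30.7, 60.1 and 32.1 CPM in banded replicates 1 to 4. Banded replicates 2, 3 and 4 lay above all sham samples, and banded replicate 1 lay below 2 of the 3. Controls 1 to 4 were at 1.96, 7.80, 25.6 and 1.92 CPM and trained replicates 1 to 4 at 11.4, 3.47, 1.65 and 1.61 CPM. Control replicate 3 alone was high among the controls, and trained replicate 1 alone among the trained samples. Nr4a1, the nuclear receptor, repeated this order in part, at 69.0, 5.50 and 31.6 CPM in sham 1, sham 2-3 and sham 4 and 15.4, 24.6, 134 and 90.7 CPM in banded replicates 1 to 4. In controls 1 to 4 it was at 13.9, 17.8, 149 and 4.93 CPM and in trained replicates 1 to 4 at 49.2, 9.42, 2.75 and 6.28 CPM. The single highest Nr4a1 value of all 15 samples was therefore that of an untrained, unoperated animal's library, control replicate 3.

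Egr1, the serum response factor target, followed another order in the exercise experiment. It was at 32.6, 2.07 and 16.9 CPM in sham 1, sham 2-3 and sham 4 and at 18.1, 5.47, 21.6 and 73.7 CPM in banded replicates 1 to 4. Controls 1 to 4 were at 44.3, 13.9, 4.67 and 2.74 CPM and trained replicates 1 to 4 at 26.96, 10.9, 11.4 and 12.0 CPM. Control replicate 1, not control replicate 3, was the high control for Egr1. Myc, the growth-promoting transcription factor, had low counts, at 0.721 to 4.02 CPM in sham, 1.26 to 5.84 CPM in banded, 1.11 to 2.88 CPM in control and 0.991 to 4.96 CPM in trained samples. Its highest banded value was in replicate 1 and its lowest in replicate 4, the replicate that was highest for Fos.

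**Figure D2:**
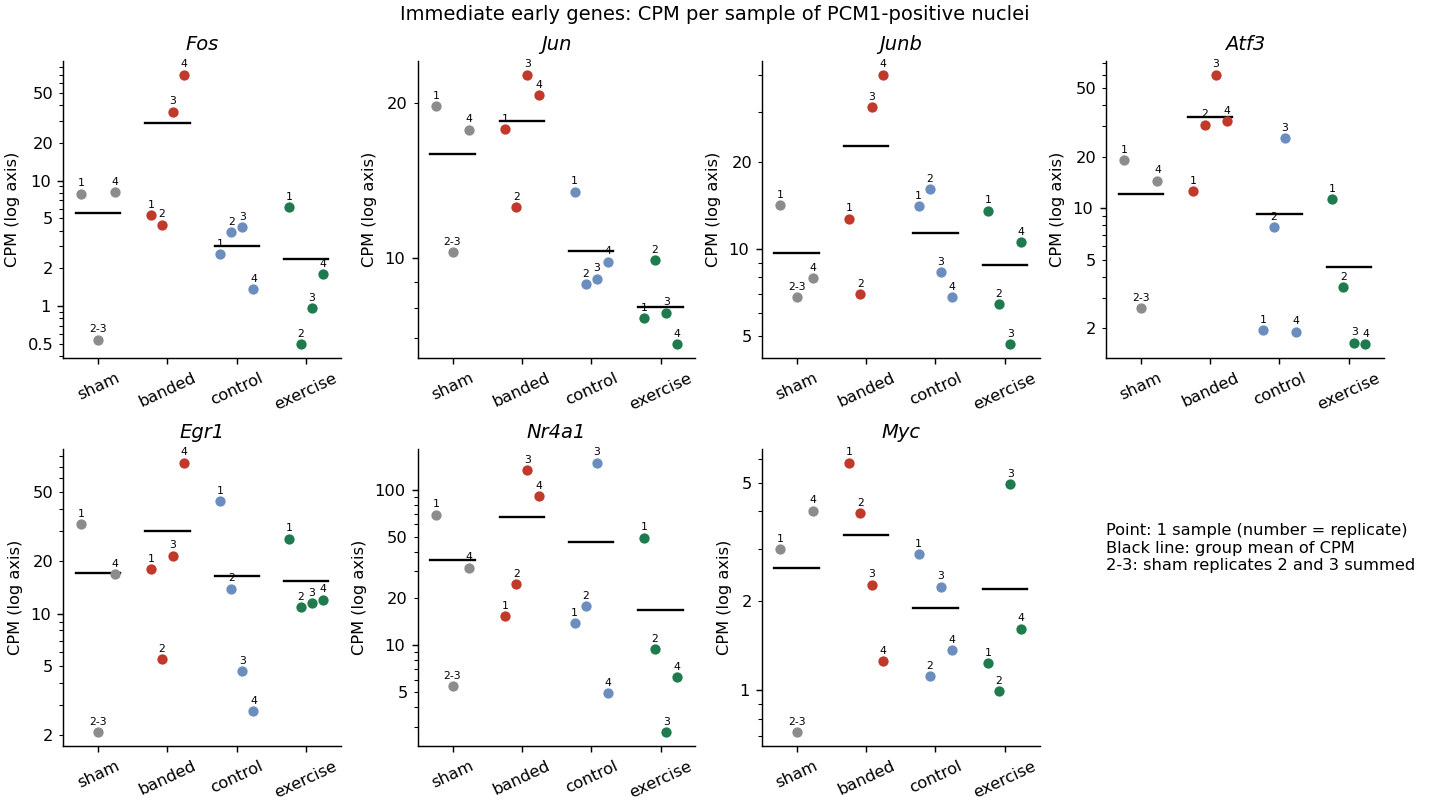
CPM of each gene (vertical log axis) in each sample (points, numbered by replicate), by group, with the group mean as a black line. Sham 2-3 is the lowest sham point for all 7 genes, and banded replicates 3 and 4 are the 2 highest banded points for all genes but Myc.

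Over groups, the mean of all 7 genes was highest in banded samples. Mean Fos was 28.8 ± 31.0 CPM in banded (SD, n = 4), 5.49 ± 4.29 in sham (n = 3), 3.04 ± 1.32 in control (n = 4) and 2.36 ± 2.61 in trained samples (n = 4). Mean Atf3 followed the same order, at 33.9 ± 19.6, 12.1 ± 8.52, 9.31 ± 11.2 and 4.53 ± 4.65 CPM. Mean Jun was 18.4 ± 4.39, 15.9 ± 4.97, 10.3 ± 2.12 and 8.06 ± 1.31 CPM, and mean Egr1 29.7 ± 30.1, 17.2 ± 15.3, 16.4 ± 19.2 and 15.3 ± 7.77 CPM, again in the order banded, sham, control and trained. For Nr4a1 the control mean came second, at 46.4 ± 68.6 CPM between 66.3 ± 56.4 in banded and 35.4 ± 31.9 in sham samples, with trained samples at 16.9 ± 21.7. Mean Junb was 22.8 ± 15.5 in banded, 11.4 ± 4.48 in control, 9.68 ± 3.98 in sham and 8.83 ± 4.03 CPM in trained samples, and mean Myc 3.33 ± 2.01 in banded, 2.58 ± 1.69 in sham, 2.20 ± 1.86 in trained and 1.90 ± 0.809 CPM in control samples. Neighbouring groups in each of these orders overlapped for all 7 genes (3 of 3 neighbour pairs each).

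The comparison of banded with sham samples asked whether pressure overload moved these genes in cardiomyocyte nuclei. All 7 fitted differences were positive, but none of the 7 passed the test (0 of 7, edgeR quasi-likelihood test, adjusted p = 1.00 for each). The largest log2 fold was that of Fos, at 2.39 (SE 1.15, 95% interval -0.24 to 5.02), followed by Atf3 at 1.48 (SE 0.68, interval -0.09 to 3.05) and Junb at 1.23 (SE 0.60, interval -0.13 to 2.60). Nr4a1 was at 0.91 (SE 0.92, interval -1.19 to 3.01), Egr1 at 0.82 (SE 0.96, interval -1.39 to 3.02), Myc at 0.39 (SE 0.65, interval -1.09 to 1.87) and Jun at 0.21 (SE 0.29, interval -0.46 to 0.87). All 7 intervals take in no change, and all but that of Jun take in a rise of over 2-fold. The median over the 7 genes was 0.91, against -0.0080 over the 12689 genes tested, of which 0.00788% passed. In edgeR and in voom with limma 0 of the 7 reached an unadjusted p under 0.05, and in DESeq2 2 did, with 0 called after adjustment. Of all 12689 genes, 234 reached it in edgeR, 247 in voom with limma and 267 in DESeq2. For no gene did every banded sample lie above every sham sample (0 of 7, against 1.49% of all genes tested).

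Sham 2-3, which held the lowest sham value of all 7 genes, weighed on these folds. Without it the log2 fold was 1.87 for Fos, 1.00 for Atf3, 1.04 for Junb, 0.41 for Nr4a1, 0.30 for Egr1 and -0.03 for Jun. Without sham 1 and banded 1, the samples richest in PCM1-negative-enriched genes, the fold was 3.07 for Fos, 2.23 for Atf3, 2.14 for Nr4a1, 1.83 for Egr1, 1.81 for Junb and 0.40 for Jun, each larger than with them, and 0.095 for Myc, which was smaller. In that fit of edgeR 4 of 7 genes reached an unadjusted p under 0.05, as did 340 of the 12571 genes tested. After adjustment 0 of the 7 passed. In that last comparison 2 sham samples faced 3 banded samples.

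The authors' deposited columns, which hold 1 log2 RPM value (reads-per-million) per group with an FDR, gave calls where the libraries taken singly did not. In the authors' deposited table Fos was at 2.11 log2 RPM in sham and 4.41 in banded samples (FDR 0.0371), Atf3 at 3.10 and 4.97 (FDR 1.29e-16) and Nr4a1 at 4.22 and 5.88 (FDR 1.45e-09). Junb, at 2.95 and 4.54 log2 RPM, had an FDR of 1 in the authors' deposited table, as did Jun at 3.83 and 4.38. Egr1 (3.27 and 4.42, FDR 0.430) and Myc (1.20 and 1.62, FDR 0.438) in the authors' deposited table did not pass either. These 3 of 7 genes called, all higher in banded samples, stand against 2.63% of the 22938 genes in either direction and 1.46% called higher. How libraries were combined, and which test gave the FDR, is not stated in the file headers.

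Trained samples were compared with controls to ask the same of physiological growth. None of the 6 genes kept by the count filter passed the test (0 of 6, edgeR quasi-likelihood test, adjusted p = 0.730 to 0.977, none with an unadjusted p under 0.05). Of the 10815 genes tested, 0% passed in edgeR, and 761 had an unadjusted p under 0.05. DESeq2 called 25 higher and 12 lower, with 0 of the 6 among them. An unadjusted p under 0.05 was reached by 1 of the 6 in voom with limma (794 of all genes tested) and by 0 in DESeq2 (592 of all). The fitted log2 folds were -1.52 for Nr4a1 (SE 0.99, 95% interval -3.67 to 0.62), -1.12 for Atf3 (SE 0.85, interval -2.97 to 0.73) and -0.43 for Jun (SE 0.21, interval -0.88 to 0.02). Junb was at -0.33 (SE 0.36, interval -1.11 to 0.45), Fos at -0.32 (SE 0.59, interval -1.61 to 0.97) and Egr1 at -0.20 (SE 0.65, interval -1.61 to 1.21). All 6 intervals take in no change, and they also take in falls larger than the fitted ones. The median of the 6 folds was -0.38, against -0.0075 over all genes tested. Both of the larger values rested on control replicate 3: without it the log2 fold was 0.49 for Nr4a1 and 0.47 for Atf3. Without trained replicate 1, the high trained sample, they were -3.15 and -2.25. In that edgeR fit 3 of 7 genes reached an unadjusted p under 0.05, as did 834 of the 11094 genes tested. After adjustment 0 of the 7 passed there. For no gene did every trained sample lie below every control (0 of 7, against 1.98% of genes tested). Per the authors' deposited table, Egr1 was 0.31 higher in trained samples on the log2 scale and the other genes were lower, each at an FDR of 1, so 0 of 7 were called, against 1.27% of all genes.

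**Figure D3:**
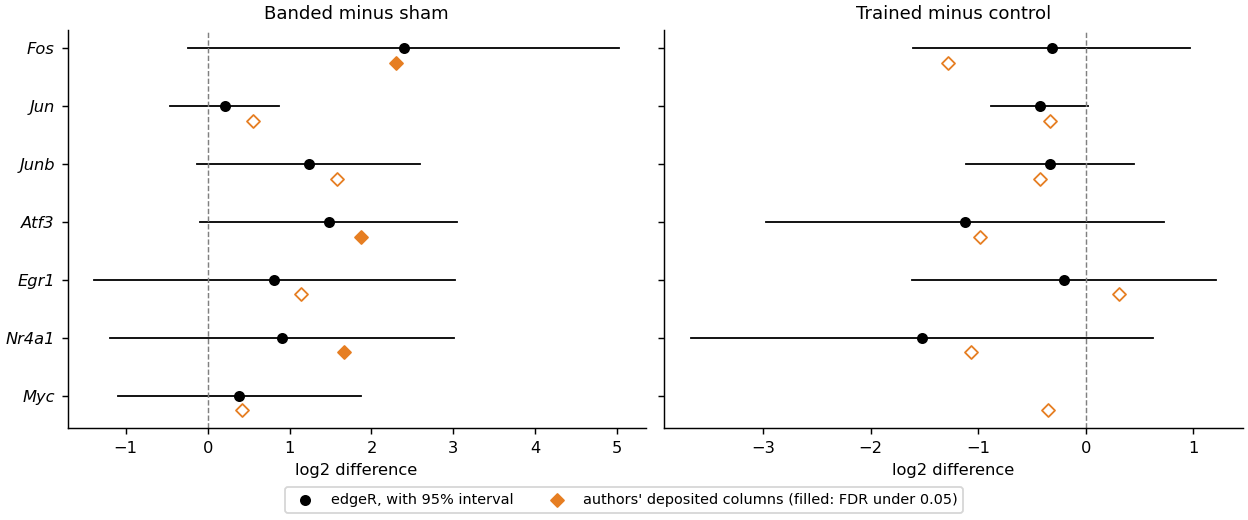
Log2 difference of banded minus sham (left) and trained minus control (right) for each gene, as the edgeR estimate with its 95% interval (black) and the difference of the authors' deposited group columns (diamonds, filled where FDR is under 0.05). Every black interval crosses 0, while the diamonds of Fos, Atf3 and Nr4a1 are filled on the left and none is filled on the right. Myc has no black point on the right because it did not pass the count filter there.

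Whether banding and training acted differently was tested in 1 fit of all 4 groups. The difference, banding effect minus training effect, was 2.68 for Fos (SE 1.42), 2.56 for Atf3 (SE 1.23), 2.37 for Nr4a1 (SE 1.56) and 1.54 for Junb (SE 0.73) on the log2 scale. It was positive in 7 of 7 genes but passed in none (0 of 7, edgeR, adjusted p = 1.00 for each, none with an unadjusted p under 0.05, and 1 with one in DESeq2), where 0.00791% of the 12650 genes tested passed. In DESeq2, 480 of these 12650 genes had an unadjusted p under 0.05. Without control replicate 3 the difference was 1.03 for Atf3 and 0.41 for Nr4a1. Sham and control samples, the reference groups of the 2 experiments, were also set side by side, although start weight, surgery and experiment cannot be told apart between them. Jun was higher in sham by 0.60 (SE 0.25, edgeR unadjusted p = 0.0309, adjusted p = 0.242), the other genes had an unadjusted p above 0.05, and 0 of 7 passed against 0.941% of genes tested. No gene had every sham sample above every control (0 of 7, against 5.57%).

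For most of these genes the spread between samples of 1 group was among the widest of all genes. The SD of log2 CPM within groups was 1.77 for Nr4a1, 1.52 for Fos, 1.50 for Egr1 and 1.36 for Atf3, where the median gene had 0.32. The share of the 12650 genes with a smaller SD was 99.97% for Nr4a1, 99.9% for Fos and Egr1, 99.8% for Atf3, 94.0% for Myc (SD 0.87) and 90.4% for Junb (SD 0.79). Jun, at an SD of 0.34, stood near the middle, with 52.7% of genes below it. In absolute terms, Nr4a1 ranged 30.3-fold among controls and 17.9-fold among trained samples, and Fos 15.7-fold among banded samples, where Jun ranged 1.80-fold.

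Low counts alone widen such spreads, so the biological coefficient of variation that edgeR estimates beyond counting error was read against its trend at the same abundance. In the fit of all 4 groups it was 0.957 for Nr4a1 (trend 0.219), 0.826 for Fos (0.303), 0.808 for Egr1 (0.258), 0.770 for Atf3 (0.276), 0.558 for Myc (0.406) and 0.469 for Junb (0.284). Jun alone lay below its trend, at 0.240 against 0.284. The 6 of 7 genes above trend compare with 28.3% of all genes.

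**Figure D4:**
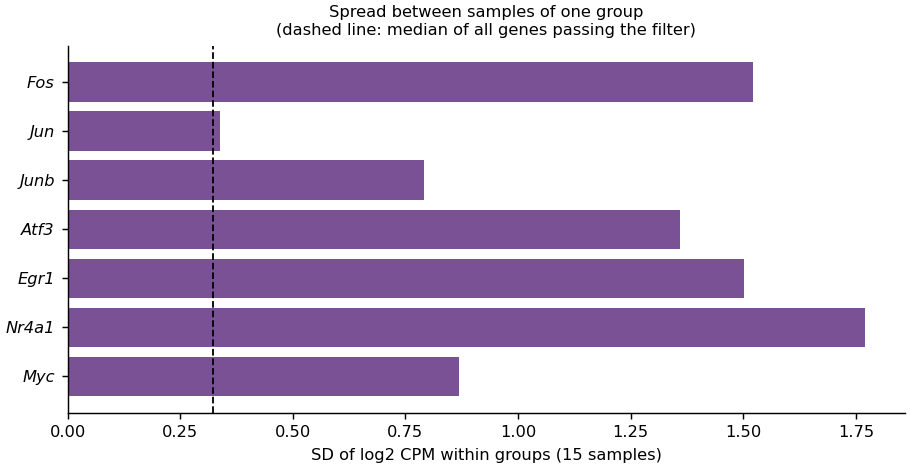
SD of log2 CPM within groups (horizontal axis) for each gene as a bar, with the median over all genes passing the filter as a dashed line at 0.32. Nr4a1, Fos, Egr1 and Atf3 exceed 1.3, and the bar of Jun ends at the dashed line.

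Part of this spread was shared. After each gene was centred on its group means, the Pearson correlation of log2 CPM over the 15 samples was above 0 in 17 of the 21 pairs and above 0.7 in 6 pairs, where 2.86% of all pairs of genes passed that value. The median over the 21 pairs was 0.451, against -0.003 over all pairs of the 12650 genes. By experiment, r was above 0 in 19 of the 21 pairs among the surgery samples and in 12 among the exercise samples. The tightest pair was Atf3 with Nr4a1, at r = 0.930 and Spearman's rho = 0.925 (permutation within groups, 100000 draws, p = 4.0e-05 for r, adjusted over 21 pairs 0.000840, and 0.00147 for rho). This permutation does not keep same-numbered sham and banded samples together, although they deviated together, so the p-values here may be too small, and those near 0.05 are the least secure. For Atf3 with Nr4a1, r reached 0.926 among the 7 surgery samples and 0.934 among the 8 exercise samples. It was 0.891 without the 2 samples farthest from the median of Atf3. For each pair below, too, these 2 samples were chosen on the first-named gene only, so samples extreme in the second gene could remain. Leaving out any 1 sample kept the r of Atf3 with Nr4a1 between 0.898 and 0.955.

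Fos with Junb, both AP-1 subunits, had r = 0.804 and rho = 0.829 (permutation, adjusted p = 0.0260 and 0.0255), with 0.847 in the surgery and 0.714 in the exercise samples and 0.790 without the 2 farthest samples. Fos with Nr4a1 had r = 0.781 and rho = 0.793 (permutation, adjusted p = 0.0180 and 0.0133; 0.921 and 0.721 by experiment; 0.765 without the 2 farthest). Junb with Egr1 had r = 0.765 and rho = 0.779 (permutation, adjusted p = 0.0151 and 0.00861; 0.795 and 0.721 by experiment; 0.659 without the 2 farthest). These 3 pairs were above 0.7 in both experiments. Fos with Egr1 (r = 0.729, rho = 0.718, permutation, adjusted p = 0.0201 and 0.0255) and Jun with Egr1 (r = 0.748, rho = 0.657, adjusted p = 0.0454 and 0.0876) were at 0.901 and 0.906 in the surgery samples but 0.404 and 0.465 in the exercise samples, and fell to 0.580 and 0.552 without the 2 farthest samples. Fos with Atf3 completed the 7 pairs that passed for r (r = 0.665, rho = 0.743, permutation, adjusted p = 0.0271 and 0.0133; 0.777 and 0.661 by experiment; 0.666 without the 2 farthest). Junb with Nr4a1 passed for rho and not for r (r = 0.563, rho = 0.70, adjusted p = 0.109 and 0.0302).

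Myc was not seen to take part in the shared variation. Its correlations with the other 6 genes lay between -0.399, with Junb, and 0.200, with Jun, and none passed (permutation, adjusted p of 0.324 or more). Myc had few counts, from 2 in control replicate 2 and trained replicate 2 to 70 in banded replicate 1. The part of low counts in these correlations was not tested. Jun with Fos was at r = 0.882 in the surgery samples and at -0.437 in the exercise samples, a difference that was not tested. The median over the 21 pairs was 0.777 in the surgery and 0.134 in the exercise samples, also without a test of the difference. Without sham 2-3 the median over the other samples of both experiments was 0.290.

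**Figure D5:**
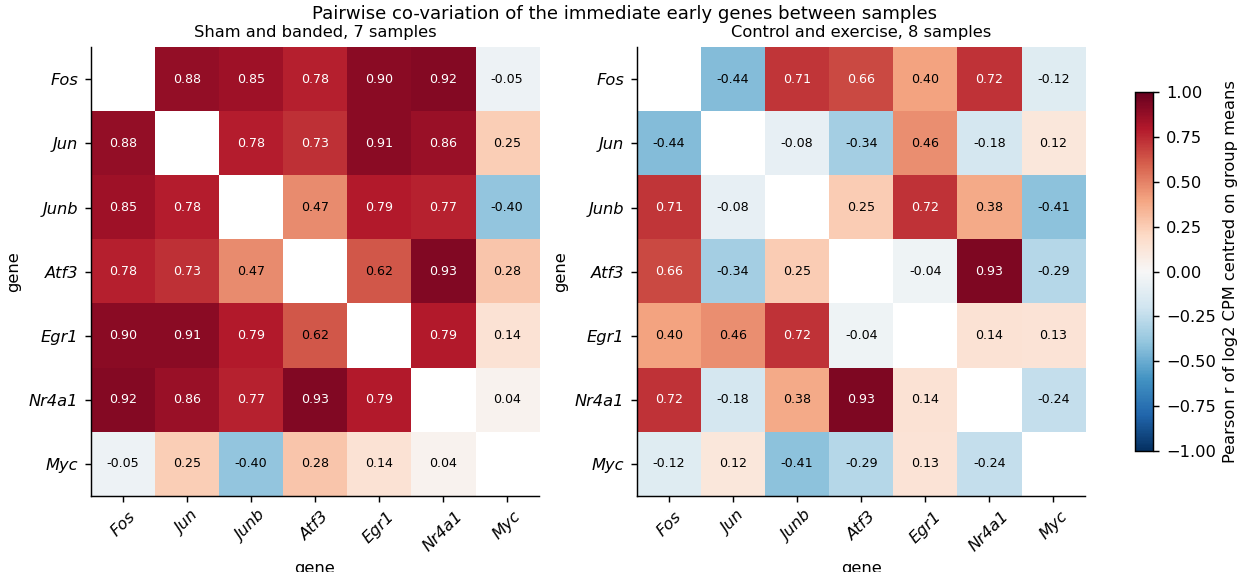
Pearson r of log2 CPM, centred on group means, for each pair of genes in the 7 surgery samples (left) and the 8 exercise samples (right), on a colour scale from -1 to 1. The pair Atf3 and Nr4a1 is dark red in both panels, the row of Myc is pale or blue in both, and the row of Jun is red on the left and mostly pale or blue on the right.

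Read by sample, the levels of the 7 genes relative to their means over all 15 samples crossed the groups. Unlike the correlations above, this scale keeps the differences between groups. In sham 1 and in banded replicate 3, 7 of 7 genes were above their own mean over all samples, and in banded replicate 4 all but Myc were. Sham 2-3, control replicate 4, trained replicate 2 and trained replicate 4 had 0 of 7 genes above their means, and trained replicate 3 had 1. Averaged over the 7 genes, log2 CPM relative to those means ran from -1.52 in sham 2-3 to 1.77 in banded replicate 4. The sham group alone covered most of that range, with sham 1 at 0.93. When the genes were instead centred on group means and standardised, their average ran from -1.45 in sham 2-3 to 0.93 in sham 1. Banded replicates 1 and 2 were then at -0.40 and -0.90, against 0.43 and 0.16 on the first scale.

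The share of counts from PCM1-negative-enriched genes was set beside these levels, since 4 of the 7 genes were higher in PCM1-negative nuclei. Centred on group means, its log2 value had r = 0.564 and rho = 0.618 with Egr1 and r = 0.551 and rho = 0.471 with Jun, r = 0.280 and rho = 0.218 with Fos, and r = 0.103 and rho = 0.007 with Nr4a1 (permutation within groups, n = 15, adjusted p over 14 relations 0.688 or more for r and 0.374 or more for rho). Junb had r = 0.318 and rho = 0.254 with that share, and Myc r = 0.387 and rho = 0.35. Without the 2 samples farthest from its median, r was 0.663 for Egr1, 0.629 for Jun, 0.565 for Fos, 0.495 for Junb, 0.178 for Nr4a1 and 0.174 for Myc. By experiment, r ran from 0.222 (Atf3) to 0.663 (Egr1) in the surgery samples. In the exercise samples it ran from -0.493 (Atf3) to 0.440 (Junb). Atf3 had r = 0.0061 and rho = -0.10 with that share over the 15 samples. Banded replicate 1, with the highest share, held the lowest banded values of both Atf3 and Nr4a1, and sham 1, with the next highest, held the highest sham values of both. The part of that share in the differences between groups was not tested beyond these values. Total counts had r between -0.344 and 0.058 with 6 of the genes and r = 0.539 and rho = 0.646 with Myc (permutation, adjusted p = 0.656 and 0.132).

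Outside the 7, the 2 genes whose centred levels were most like the mean of the 7 standardised genes over the 15 samples were ENSRNOG00000003300 (r = 0.869, 9.59 to 108 CPM) and ENSRNOG00000013177 (r = 0.851, 87.2 to 140 CPM). They were picked as the highest of all genes passing the filter, so these values are a description only.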

How the data were processed

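Gene-level read counts were deposited untransformed by the authors (whole numbers, smallest stored value 1), beside log2 RPM per group with an FDR (a q-value) and log2 folds with FDRs for PCM1-negative against PCM1-positive nuclei, per the file headers and values. Per the submitters' processing notes the tools were Bowtie, SAMtools, edgeR and R 2.15.1, with no roles stated. The genome build, the counting rule and any use of strand are not given in the sources, and reads of overlapping genes cannot be told apart. In the exercise table, 2 unnamed rows repeating the column totals were left out.

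Counts were fitted with edgeR 4.0.16 in R 4.3.3 (quasi-likelihood test, TMM, filterByExpr with minimum count 10 and minimum total 15, Benjamini-Hochberg adjustment over all genes tested, threshold 0.05), separately per experiment and over 4 groups for effect differences and sham against control. DESeq2 1.42.0 and voom with limma 3.58.1 were alternatives. When sham 2 and 3 were added, 1 was subtracted to keep the stored minimum. The scripts were tested on simulated data with the same spread for every gene, in which only genes above a floor of counts were changed. That spread was smaller than the one estimated for most of the 7 genes, so recovery of changes in genes like these was not tested. Correlations used log2 CPM with a prior count of 2 (Python 3.11.15, numpy 2.4.6), and permutations kept samples within their group, a choice made after results of free permutation were seen. Samples of the same number in the sham and banded groups deviated together (r = 0.782, 0.572, 0.186 and 0.102 for replicates 1 to 4). Sham 3 nevertheless correlated best with banded 2, and sham 4 with banded 1. The main fits and the permutations did not pair samples by number. Only alternative fits took the numbers as pairs, through a replicate block. The 7 genes and all lists were chosen with earlier results of these data known, as was the rule for the 2 most similar genes. Histone mark files were not used here.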

Additional observations from a re-analysis of the deposited data

Results flagged for a closer look

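Of 21 groups of 4 samples tested on CPM without logs, 4 held a sample whose gap to the nearest other exceeded Dixon's 95% limit. Normally distributed values pass that limit in about 1 group in 20. That rate cannot be set against these 4, because CPM without logs need not be so distributed and the groups share samples. Nr4a1 in control replicate 3 was at 149 CPM, with the next control at 17.8. Nr4a1 in trained replicate 1 was at 49.2 CPM, with the next trained sample at 9.42. Egr1 in trained replicate 1 was at 26.96 CPM, with the next at 12.0. Myc in trained replicate 3 was at 4.96 CPM, with the next at 1.61. Trained replicate 1 was thus set apart for 2 genes, while for Atf3 it was also the highest trained sample without passing the limit.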

How the results depend on the processing

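No gene of the 7 was called under any alternative run: 14 for banding, 13 for training, 21 for the difference of effects and 20 for sham against control, all with 0 called. The nearest to a call was Jun in sham against control without sham 2-3 (log2 fold 0.80, edgeR, adjusted p = 0.0663). In that fit 416 of the 12768 genes tested were called higher and 197 lower. With the replicate block and sham 2 and 3 kept apart, 0 of the 7 were called for banding (lowest adjusted p 0.691 in edgeR). An unadjusted p under 0.05 was reached by 3 of 7 genes there, and by 792 of the 12305 genes tested. For the difference of effects 0 of the 7 were called (lowest adjusted p 0.677 in edgeR). Both fits counted the near copies sham 2 and 3 as 2 samples. The block for training also called 0 (lowest adjusted p 0.777), where same-numbered samples did not deviate together throughout (r = -0.032, 0.050, 0.164 and 0.061) and not every sample correlated best with its own number. The replicate block was not run for sham against control, because numbers are nested in experiments. For training, Egr1 changed sign to 0.30 with voom and limma and to 0.37 with the replicate block.

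Leaving out each sample in turn gave log2 folds from -0.027 to 0.36 for Jun, -0.041 to 0.87 for Myc and -0.22 to 1.64 for Egr1 under banding, and from -0.62 to 1.33 for Egr1, -2.25 to 0.47 for Atf3, -3.15 to 0.49 for Nr4a1 and -1.30 to 0.055 for Fos under training, so these signs rest on single samples. The banding fold of Egr1 turned negative without banded replicate 4, and that of Myc also did without banded replicate 1 (-0.016). Fos, Atf3, Junb and Nr4a1 stayed positive under all 14 banding alternatives, at 1.39 to 3.07, 1.00 to 2.23, 0.73 to 1.81 and 0.32 to 2.14. The median pairwise correlation was 0.566 without centring on groups, 0.777 in surgery and 0.134 in exercise samples, and 0.381 without sham 1 and banded 1, and it ran from 0.290 to 0.553 as each sample was left out. The cause of these shifts was not tested. Counting depth limits Fos, Myc, Atf3 and Egr1 in the samples that held 10 counts or fewer of them. The banding fit without sham 1 and banded 1 was chosen after seeing the data.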
